A study of Mus musculus with 11 samples.

Results

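Livers of obese mice expressing FXR-K217R were compared with livers of lean mice expressing FXR-WT, to find the transcripts that still differed from the lean wild-type level and those that lay at it. The comparison took every array that the labels give to these groups, 3 obese FXR-K217R and 2 lean FXR-WT arrays of 11 in all, and ran across all 15469 genes detected on the Illumina BeadChips. FXR, encoded by Nr1h4, is the nuclear receptor that bile acids activate. FXR-K217R carries arginine in place of a lysine that can be acetylated, so that this site cannot take an acetyl group, whereas FXR-K217Q carries glutamine, which resembles acetyl-lysine. The other arrays came from obese FXR-WT livers (3) and lean FXR-K217Q livers (3).

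All groups were male C57BL/6J mice, labelled 8 weeks old, that received their FXR construct by adenovirus and the synthetic FXR agonist GW4064 at 30 mg/kg overnight. No group was free of virus or of agonist. The labels do not state whether the mouse's own FXR gene was intact. The array titles mark the obese groups HFD and the lean groups ND, usual short forms for high-fat and normal diet. Diet, obesity and the construct changed together between obese FXR-K217R and lean FXR-WT livers. Their contributions to a difference cannot be told apart in this comparison. Whether the arrays of a group come from different mice is not in the labels. The p-values therefore reflect array-to-array spread alone, which may be technical.

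FXR in the liver keeps bile acids in check. When bile acids rise, it lowers their synthesis, raises their export into bile, and also acts on triglyceride and glucose metabolism. It can also hold down inflammatory genes, and acetylation and SUMO attachment at neighbouring lysines are thought to compete for that function. Sterol synthesis in the same cells is set mainly by SREBP-2, which rises in activity when the cell is short of cholesterol, while fatty liver is marked by proteins that coat and enlarge lipid droplets.

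The arrays had 18263 to 19500 probes detected of 45281, and 41.9 to 44.0 beads per probe on average. The first principal component, with 34.6% of the variance, placed the obese FXR-K217R arrays at -28.5 to -15.5 and the lean FXR-WT arrays at 21.3 and 34.1. Array 1 of obese FXR-WT (6.7) and array 3 of lean FXR-K217Q (34.2) lay apart from the other arrays of their groups. Neither belongs to the groups compared, but all 11 arrays shared the estimate of the spread, so counts are also given without both. Each obese FXR-K217R array correlated best with an obese FXR-WT array (0.991 to 0.992). Hepatocyte markers such as Trf, which encodes transferrin, and Serpina1b lay near 15 on the log2 scale in both groups. Of 15 tested hepatocyte identity markers, 12 lay at the lean level and 2 were lower, Tat and Cps1.

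Values are normalized log2 intensities, and a difference is the obese FXR-K217R mean minus the lean FXR-WT mean on that scale. At a 5% false discovery rate in limma's moderated test, 149 genes were higher (0.963% of all genes tested) and 109 were lower (0.705%) in obese FXR-K217R livers. A gene was said to lie at the lean level only where a 2-fold difference in either direction was refused by one-sided moderated tests at the same rate. That held for 13409 genes (86.7%), of which 29 also passed the first test with a small difference. Neither statement could be made for 1831 genes (11.8%). Counts at the lean level in the gene lists are to be read against that 86.7%. Counts of higher and of lower members are to be read against 0.963% and 0.705%. Among the 258 genes that differed, 167 did so by at least 2-fold, and all had array values that did not overlap between the groups, as did 40.2% of all genes. The median difference over all genes was -0.01 and the median standard error 0.19.

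These counts lean on single arrays. Without array 2 of lean FXR-WT, which leaves 1 lean wild-type array whose spread is borrowed from the other groups, 12 genes were higher and 26 lower, and 36 of the 258 were kept. Without array 1 of lean FXR-WT the counts were 46 and 42. They were 53 and 54 without array 1 of obese FXR-K217R and 59 and 59 without array 3. Without array 2 or array 3 of obese FXR-WT, the counts were 93 and 78 and 94 and 77. Leaving out array 3 of lean FXR-K217Q gave 293 and 268, and leaving out both arrays that stood apart gave 484 higher and 459 lower. Every one of the 258 differences kept its sign in each of these fits. That was fixed in advance, because their array values did not overlap between the groups, and so it says nothing on robustness. In all 23 alternative fits, 26 genes passed, 19 of them lower, including Sqle, Cyp51, Idi1, Fdps, Lss, Nsdhl, Pmvk, Dhcr7, Acat2 and Stard4 of the sterol list.

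**Figure D1:**
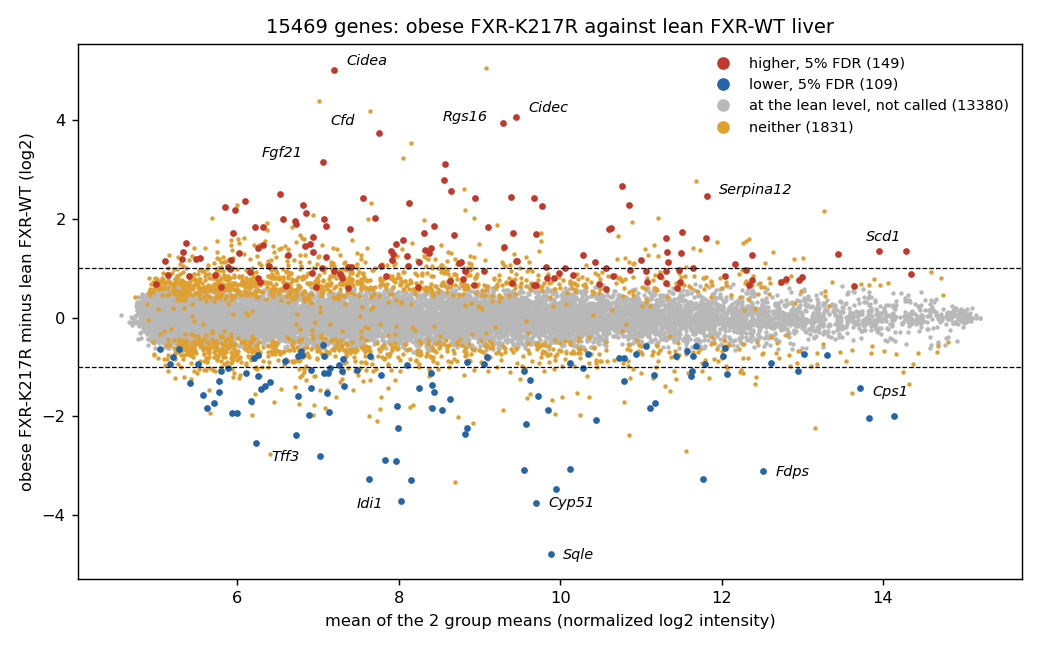
Each point is 1 of the 15469 genes, with the mean of the group means on the x axis (normalized log2 intensity) and the difference, obese FXR-K217R minus lean FXR-WT (log2), on the y axis; dashed lines mark 2-fold. Red points are the 149 higher genes and blue points the 109 lower genes at a 5% false discovery rate, with Cidea, Cidec and Rgs16 among those farthest above 0 and Sqle, Cyp51 and Idi1 among those farthest below it.

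Sterol synthesis was the group with the most genes lower. Of 25 listed genes of the pathway and its regulation, 23 were tested, and 17 were lower, against 0.705% of all genes. None was higher, and 1, Sc5d, lay at the lean level. The median difference of the 23 was -1.87, against -0.01 over all genes, and every one of them was negative. The summed linear intensity of the list was 19500 to 24200 in obese FXR-K217R livers and 74400 to 85000 in lean FXR-WT livers. Obese FXR-WT livers had 17800 to 22900 and lean FXR-K217Q livers 41600 to 61400. The list kept 12 to 22 lower members over the alternative fits, with 12 when array 2 of lean FXR-WT was left out.

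The pathway starts with acetyl-CoA and runs through mevalonate. Mvd, which decarboxylates mevalonate diphosphate, had 6.45, 6.88 and 6.17 in obese FXR-K217R livers and 9.78 and 9.79 in lean FXR-WT livers, a fall of 9.77-fold without overlap (limma adjusted p = 0.00414). Idi1, the isomerase that makes the next isoprenoid unit, had 6.00, 6.57 and 5.93 in obese FXR-K217R livers and 9.67 and 10.06 in lean FXR-WT livers. Its groups were again apart, with a difference of -3.70 (SE 0.30, adjusted p = 0.000284). Fdps, farnesyl diphosphate synthase, had 10.55, 11.22 and 11.13 in obese FXR-K217R livers and 14.02 and 14.12 in lean FXR-WT livers, with no overlap and a difference of -3.10 (SE 0.25, adjusted p = 0.000284).

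The steps after farnesyl diphosphate showed the largest fall. Sqle, squalene epoxidase, had 7.15, 8.36 and 6.98 in obese FXR-K217R livers and 12.14 and 12.43 in lean FXR-WT livers. The highest obese array lay far below the lowest lean one, and the level was 27.6-fold lower (difference -4.79, SE 0.40, 95% interval -5.68 to -3.89, adjusted p = 0.00034). Lss, which closes the sterol ring system, had 7.63, 8.33 and 8.08 in obese FXR-K217R livers and 10.92 and 11.28 in lean FXR-WT livers, with no overlap (difference -3.09, SE 0.31, adjusted p = 0.00112). Cyp51, the lanosterol demethylase, had 7.54, 8.34 and 7.62 in obese FXR-K217R livers and 11.39 and 11.75 in lean FXR-WT livers. Its groups did not overlap (difference -3.74, SE 0.28, adjusted p = 0.000217). Sc4mol, now named Msmo1, and Nsdhl, which act together in removing methyl groups from the ring, were lower by 9.66-fold and 7.37-fold. Dhcr7, which makes cholesterol in the last step of one branch, had 8.86, 9.0 and 8.87 in obese FXR-K217R livers and 10.72 and 10.83 in lean FXR-WT livers, a clear gap (difference -1.87, SE 0.15, adjusted p = 0.000284). Sc5d, which desaturates the ring late in the pathway, differed by -0.60 (SE 0.19), and a 2-fold fall was refused for it (adjusted p of the level test = 0.0357).

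Genes around the pathway differed less in size. Stard4, a carrier of cholesterol between membranes, was lower by 3.02-fold (adjusted p = 0.00237). Srebf2, which encodes SREBP-2 itself, had 7.57, 8.22 and 7.76 in obese FXR-K217R livers and 8.85 and 8.93 in lean FXR-WT livers, and did not pass (difference -1.03, adjusted p = 0.0538). Insig1, which holds SREBP in the endoplasmic reticulum, did not pass by its brightest probe, with a difference of -0.98 (adjusted p = 0.0826), while its other probes differed by -1.66 and -1.70 (SE 0.23 each). By the brightest probe it passed in 5 of 23 alternative fits (lowest adjusted p = 0.0115).

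The lower levels of sterol genes were met in both obese groups. Sqle had 7.91, 7.27 and 7.86 in obese FXR-WT livers and 11.28, 11.43 and 12.21 in lean FXR-K217Q livers. The obese FXR-WT minus lean FXR-WT difference of Sqle, which uses the same lean arrays, was -4.60 (adjusted p = 0.000399). Between obese FXR-K217R and obese FXR-WT livers it was -0.18 (adjusted p = 0.994). The list medians in these comparisons were -2.08 and 0.13.

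Promoters are shown for 4 of the genes with the largest falls, because the same short sequence occurs in most promoters of the group. They run from 250 bases before to 50 bases after a RefSeq gene start in GRCm38.p6, 5′ to 3′ on the gene's strand, with CCAAT or its reverse complement in capitals. CCAAT is the box that NF-Y binds, a factor known to work beside SREBP at sterol gene promoters. The windows are chr13:8885356-8885655 (plus strand) for Idi1, chr5:4104648-4104947 (minus strand) for Cyp51, chr10:76531355-76531654 (plus strand) for Lss and chrX:72918271-72918570 (plus strand) for Nsdhl.
Idi1: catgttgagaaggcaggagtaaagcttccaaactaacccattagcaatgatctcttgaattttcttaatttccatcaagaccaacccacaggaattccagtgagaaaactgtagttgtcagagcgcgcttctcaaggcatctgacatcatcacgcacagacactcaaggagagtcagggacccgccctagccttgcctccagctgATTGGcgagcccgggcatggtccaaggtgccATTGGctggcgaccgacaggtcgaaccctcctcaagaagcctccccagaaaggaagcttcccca
Cyp51: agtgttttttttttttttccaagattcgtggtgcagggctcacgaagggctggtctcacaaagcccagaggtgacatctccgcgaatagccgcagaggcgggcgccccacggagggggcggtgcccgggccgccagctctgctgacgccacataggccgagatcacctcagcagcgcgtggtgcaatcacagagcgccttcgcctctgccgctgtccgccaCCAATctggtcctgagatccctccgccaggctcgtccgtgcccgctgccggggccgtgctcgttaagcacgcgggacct
Lss: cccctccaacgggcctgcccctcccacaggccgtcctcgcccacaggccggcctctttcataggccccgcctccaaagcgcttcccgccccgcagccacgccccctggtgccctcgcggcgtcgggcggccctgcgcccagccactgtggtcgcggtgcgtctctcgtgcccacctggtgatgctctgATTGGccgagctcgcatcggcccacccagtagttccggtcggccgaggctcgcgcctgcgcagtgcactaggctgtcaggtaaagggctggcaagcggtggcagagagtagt
Nsdhl: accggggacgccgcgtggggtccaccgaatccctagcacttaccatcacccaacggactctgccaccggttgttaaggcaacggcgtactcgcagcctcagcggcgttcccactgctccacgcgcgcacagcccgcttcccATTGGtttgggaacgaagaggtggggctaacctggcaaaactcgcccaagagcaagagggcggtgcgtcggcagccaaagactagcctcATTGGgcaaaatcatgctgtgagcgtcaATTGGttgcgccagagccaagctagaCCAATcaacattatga
Of the 17 lower sterol genes, 11 matched a RefSeq promoter entry, and 10 of these 11 held CCAAT on either strand, as did 5 of the 5 matched members that were not called. Over all RefSeq genes in the table the share was 41.1%, and over all windows of this length 37.4%. The letters TCACNCCAC, a form of the sterol regulatory element, were in the windows of 0 of the 11, and in 1.24% of all windows. Sqle and Fdps are named only.

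Lipid droplet genes were the other large block. Of 23 listed genes, 20 were tested, 7 were higher against 0.963% of all genes, and 9 lay at the lean level, 1 of them, Pnpla2, in both counts. The median difference was 0.76. Cidea, whose protein drives droplet fusion and is normally abundant in brown fat, had 9.32, 9.44 and 10.34 in obese FXR-K217R livers, while the lean FXR-WT arrays gave 4.56 and 4.82, where it was not detected. The obese level was at least 22.8-fold higher (adjusted p = 8.62e-05). Cidec, its relative that is high in white fat and fatty liver, had 11.32, 11.28 and 11.85 in obese FXR-K217R livers and 7.75 and 7.09 in lean FXR-WT livers. The groups were far apart, 16.7-fold (difference 4.06, SE 0.25, adjusted p = 8.62e-05). Cideb, the member of this family that hepatocytes normally make, lay at the lean level (0.26, SE 0.13).

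The droplet coat proteins were split. Adfp, now Plin2, had 12.79, 12.36 and 12.68 in obese FXR-K217R livers and 11.23 and 10.80 in lean FXR-WT livers, with no overlap (difference 1.60, SE 0.16, adjusted p = 0.00119). S3-12, now Plin4, had 9.55, 9.87 and 10.63 in obese FXR-K217R livers and 8.26 and 8.12 in lean FXR-WT livers, also apart (difference 1.83, SE 0.34, adjusted p = 0.0291). G0s2, an inhibitor of the lipase ATGL, and Pnpla2, which encodes ATGL, were both higher, by 3.29-fold (adjusted p = 0.0145) and 1.64-fold (adjusted p = 0.0366). Fitm2, which helps droplets form at the endoplasmic reticulum, was also higher (0.97, SE 0.15, adjusted p = 0.0173). Plin3 and Plin5 lay at the lean level. Pparg, a regulator of droplet genes, had 10.29, 9.74 and 10.59 in obese FXR-K217R livers and 9.60 and 9.40 in lean FXR-WT livers, and its difference of 0.70 (SE 0.38) did not pass (adjusted p = 0.348). The list held 3 to 9 higher members over the alternative fits, with 3 when array 3 of obese FXR-K217R or either array of lean FXR-WT was left out.

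Genes of fatty acid oxidation and PPAR-alpha, the receptor that raises fat burning in fasting, were tested for 26 of 32 listed members. Of these, 8 were higher against 0.963% of all genes, none was lower, and 12 lay at the lean level against 86.7% of all genes, with a median difference of 0.68. Fgf21, a hormone the liver secretes under PPAR-alpha, had 9.36, 7.83 and 8.69 in obese FXR-K217R livers and 5.37 and 5.59 in lean FXR-WT livers, an 8.85-fold rise without overlap (adjusted p = 0.0162). It did not pass without either lean FXR-WT array or without array 1 or 3 of obese FXR-K217R (adjusted p = 0.055 to 0.155). Acot3, a peroxisomal acyl-CoA thioesterase, had 9.74, 10.05 and 10.57 in obese FXR-K217R livers and 7.28 and 6.76 in lean FXR-WT livers. The gap was 8.57-fold (difference 3.10, SE 0.39, adjusted p = 0.00414). Acot1 and Acot2, the cytosolic and mitochondrial enzymes of the same family, were higher by 3.06-fold (adjusted p = 0.0168) and by 2.50 on the log2 scale (adjusted p = 0.00183; 1.01 to 3.00 over the alternative fits). Acot2 was detected on 1 of 2 lean FXR-WT arrays. Another probe of Acot2 differed by -0.01, near background in both groups, and these genes are close copies, so their split is uncertain. The core enzymes of mitochondrial oxidation lay at the lean level, among them Acadvl (0.00, SE 0.13) and Cpt2 (0.24, SE 0.12). Pdk4, which spares glucose in fasting, and Ppara itself did not pass (1.99, adjusted p = 0.0625, and 0.74, adjusted p = 0.08). The count of higher members ran from 1, without array 2 of lean FXR-WT, to 11. It was 2 without array 3 of obese FXR-K217R, 3 without array 1 of that group or array 1 of lean FXR-WT, and 5 without array 2 or 3 of obese FXR-WT.

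**Figure D2:**
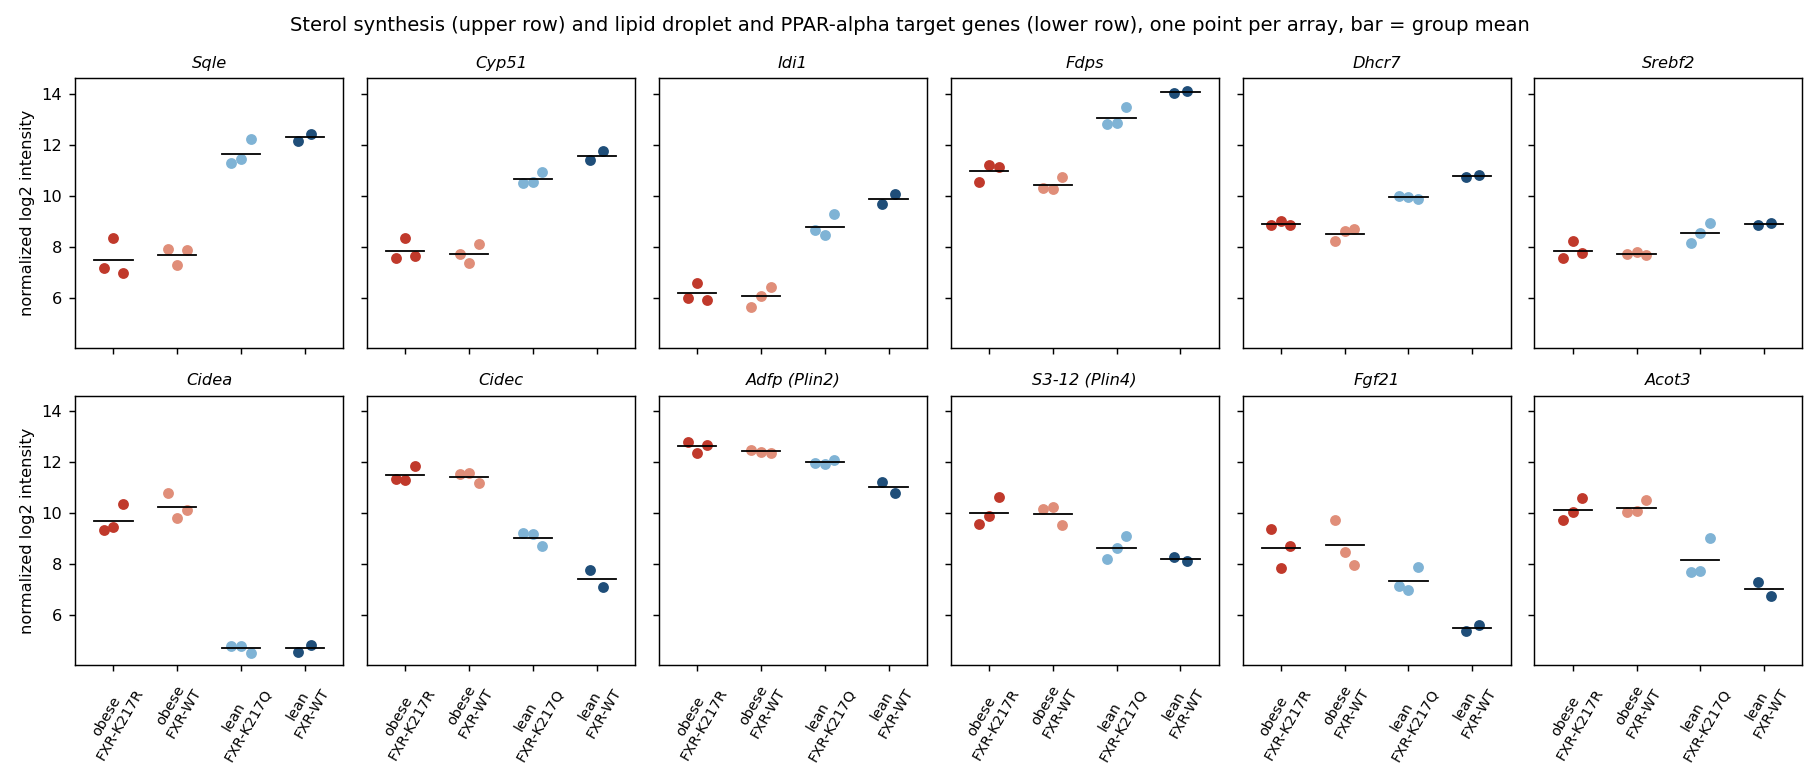
Points are single arrays of obese FXR-K217R, obese FXR-WT, lean FXR-K217Q and lean FXR-WT livers, from left to right, with normalized log2 intensity on the y axis and a bar at each group mean. In the upper row the sterol genes have their highest values in lean FXR-WT livers (Sqle 12.14 and 12.43); in the lower row Cidea, Cidec, Fgf21 and the other genes have their lowest or near lowest values there.

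Fatty acid synthesis differed at few genes. Of 19 tested members, 3 were higher against 0.963% of all genes. None was lower and 11 lay at the lean level, with a median difference of 0.20. Elovl5 was counted both as higher and as at the lean level. Scd1, the main desaturase of liver, had 15.01, 14.93 and 14.95 in obese FXR-K217R livers and 13.52 and 13.70 in lean FXR-WT livers, with no overlap (difference 1.35, SE 0.16, adjusted p = 0.00235). The obese arrays lay near the top of the scale, 15.23, where brighter signals are compressed. Pklr, the liver pyruvate kinase, rose 3.49-fold (adjusted p = 0.0129), and Elovl5, an elongase, rose 1.56-fold (adjusted p = 0.0366). Fasn, fatty acid synthase, had 7.03, 6.08 and 6.46 in obese FXR-K217R livers and 6.67 and 6.96 in lean FXR-WT livers. These overlapped, and a 2-fold difference was refused (difference -0.29, SE 0.31, adjusted p of the level test = 0.0267). Acacb and Fads1, a carboxylase and a desaturase of the pathway, also lay at the lean level. For Srebf1, which encodes SREBP-1, the interval of -0.96 to 1.41 allowed neither statement. Without either lean FXR-WT array or array 3 of obese FXR-K217R, 1 member of the list was higher.

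In glucose metabolism, 18 of 21 listed members were tested, with Pklr higher, Ppp1r3c lower and 10 at the lean level. Ppp1r3c, a subunit that targets a phosphatase to glycogen, had 11.47, 11.11 and 10.67 in obese FXR-K217R livers and 12.25 and 12.10 in lean FXR-WT livers, with no overlap (difference -1.09, SE 0.22, adjusted p = 0.0405). It passed in 12 of 23 alternative fits. No gene of the list passed without either lean FXR-WT array or without array 3 of obese FXR-K217R. Pck1, the gluconeogenic carboxykinase, had 7.87, 10.22 and 9.58 in obese FXR-K217R livers and 10.55 and 11.10 in lean FXR-WT livers. Array 1 of the obese group was far below the others, and the difference did not pass (-1.60, SE 0.62, adjusted p = 0.205). Gckr and Fbp1, a glucokinase regulator and a gluconeogenic phosphatase, lay at the lean level. Of 18 apolipoprotein and lipoprotein genes, 16 lay at the lean level and none passed the first test in limma at a 5% false discovery rate (3 at an unadjusted p under 0.05). The 2 nearest were Abcg5, a sterol exporter (0.69, adjusted p = 0.121), and Apom (-0.44, adjusted p = 0.16).

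FXR itself lay at the lean level. Nr1h4 had 12.53, 12.35 and 12.38 in obese FXR-K217R livers and 12.23 and 12.37 in lean FXR-WT livers, which overlapped. The difference was 0.12 (SE 0.15, 95% interval -0.21 to 0.45), and a 2-fold difference was refused (adjusted p of the level test = 0.000291), as it was in all 23 alternative fits. It was not tested which transcript the probe reads, that of the virus or that of the mouse. Of 28 listed FXR and bile acid genes, 24 were tested, and 14 lay at the lean level, with 1 higher and 2 lower. Over all genes, 0.963% were higher and 0.705% lower. Nr0b2, which encodes SHP, the repressor that FXR induces, was under the detection filter and has no value.

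Among the transporters, Abcb11, the bile salt export pump, had 11.43, 11.22 and 11.24 in obese FXR-K217R livers and 11.85 and 11.60 in lean FXR-WT livers. It lay at the lean level although its arrays did not overlap (difference -0.43, SE 0.26, adjusted p of the level test = 0.0308). Abcb4, which moves phospholipid into bile, had 13.39, 13.31 and 13.32 in obese FXR-K217R livers and 12.76 and 12.41 in lean FXR-WT livers, a 1.69-fold rise (adjusted p = 0.0452) that passed in 12 of 23 alternative fits. Klb, the co-receptor through which the intestinal hormone FGF15 signals, had 7.69, 7.55 and 7.93 in obese FXR-K217R livers and 8.96 and 9.21 in lean FXR-WT livers. It was lower without overlap (difference -1.36, SE 0.26, adjusted p = 0.0298). Sdc1, a heparan sulphate proteoglycan, was lower by 2.39-fold (adjusted p = 0.0132). None of the list passed in either direction when either lean FXR-WT array was left out, and when any 1 obese FXR-K217R array was left out none was higher and 1 was lower.

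The bile acid synthesis enzymes varied widely within groups. Cyp7a1, which catalyses the first and limiting step, had 10.73, 11.82 and 12.22 in obese FXR-K217R livers and 12.23 and 12.60 in lean FXR-WT livers, nearly touching. The difference of -0.82 had a 95% interval from -2.80 to 1.16, so neither a difference nor a like level was shown (adjusted p = 0.672). Cyp8b1, which makes the cholic acid branch, had 11.01, 12.46 and 13.10 in obese FXR-K217R livers and 12.18 and 13.19 in lean FXR-WT livers, and overlapped. Its interval ran from -3.24 to 2.26. Baat, which conjugates bile acids to taurine and glycine, lay at the lean level (0.14, SE 0.12). All 22 tested genes that place or remove acetyl and SUMO groups or partner FXR there lay at the lean level, with a median difference of -0.03 and 4 at an unadjusted p under 0.05 in limma. Among these, Rxra, which encodes the partner receptor of FXR, had 7.94, 8.13 and 8.07 in obese FXR-K217R livers and 8.64 and 8.78 in lean FXR-WT livers. Its difference of -0.66 (SE 0.16) did not pass (adjusted p = 0.0625), while a 2-fold fall was refused (adjusted p of the level test = 0.0321). The level statement for Rxra held in 18 of 23 alternative fits, and the gene passed as lower in 6 of 23.

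**Figure D3:**
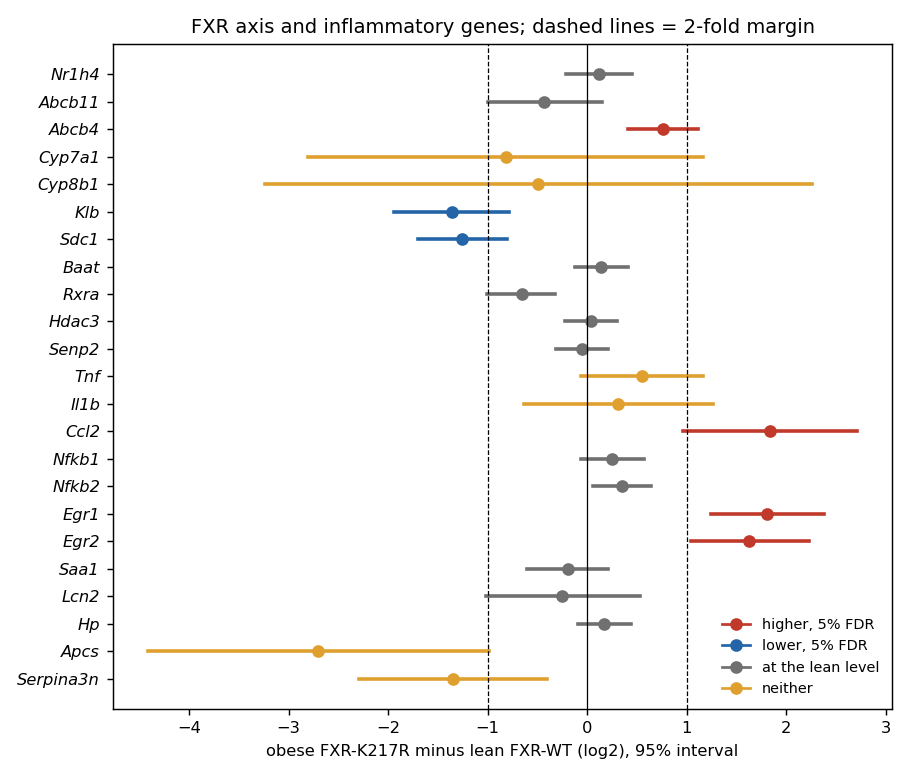
Points are differences, obese FXR-K217R minus lean FXR-WT (log2), and lines their 95% intervals, with dashed lines at 2-fold. Nr1h4 and Baat sit within narrow intervals near 0, Klb and Sdc1 lie below it, Ccl2, Egr1 and Egr2 above it, and the intervals of Cyp7a1 and Cyp8b1 reach past the 2-fold line on at least 1 side.

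Inflammatory genes under NF-kB gave 1 call. Of 35 listed genes, 32 were tested, 1 was higher against 0.963% of all genes, none was lower, and 19 lay at the lean level against 86.7% of all genes. Of the 32 differences 28 were positive, with a median of 0.33. Ccl2, the chemokine that draws monocytes, had 7.36, 7.45 and 6.89 in obese FXR-K217R livers and 5.84 and 4.95 in lean FXR-WT livers, where it was detected on 1 of 2 arrays, without overlap. It was higher (difference 1.84, SE 0.39, adjusted p = 0.0487), with 0.67 to 2.28 over 22 alternative fits, of which it passed in 12. It did not pass without any 1 of the lean FXR-WT or obese FXR-K217R arrays, or without array 2 or 3 of obese FXR-WT (adjusted p = 0.0673 to 0.359). In obese FXR-WT livers it had 6.47, 7.08 and 6.73. The cytokine Tnf had 6.07, 6.71 and 5.95 in obese FXR-K217R livers and 5.67 and 5.71 in lean FXR-WT livers. Il1b, another cytokine, had 7.41, 9.19 and 7.96 in obese FXR-K217R livers and 8.10 and 7.65 in lean FXR-WT livers, which overlapped. Neither passed and neither was placed at the lean level, with differences of 0.55 (adjusted p = 0.311) and 0.31 (adjusted p = 0.75). Nfkb1 and Nfkb2, which encode subunits of NF-kB, lay at the lean level. Cxcl10 and Ccl7, further chemokines, differed by 1.49 (adjusted p = 0.166) and 1.84 (adjusted p = 0.0753) and did not pass. Interferon response genes gave 0 calls in limma among 28 tested (9 at an unadjusted p under 0.05), 15 at the lean level and a median of 0.44, with Psmb8 nearest (0.68, adjusted p = 0.0753).

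Monocyte and macrophage markers had 1 higher of 20 tested, Ly6c1, with 8.99, 9.22 and 9.28 in obese FXR-K217R livers and 7.72 and 7.21 in lean FXR-WT livers (1.70, SE 0.36, adjusted p = 0.0487). It passed in 13 of 23 alternative fits, and not without any 1 of the obese FXR-K217R or lean FXR-WT arrays, array 2 of obese FXR-WT, or array 1 or 2 of lean FXR-K217Q (highest adjusted p = 0.345). The summed intensity of the markers was 45000 to 64000 in obese FXR-K217R livers and 31100 to 37700 in lean FXR-WT livers, and its part in the Ccl2 difference was not tested. In bulk liver, more cells of a type and more RNA per cell cannot be told apart. Kupffer cell markers gave 0 calls in limma of 12 tested (2 at an unadjusted p under 0.05), with summed intensities of 24300 to 38300 in obese FXR-K217R livers and 32400 to 33100 in lean FXR-WT livers, which overlap. All 10 tested MHC class II genes had positive differences, none passed in limma (2 at an unadjusted p under 0.05), and the median was 0.63.

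Acute phase genes had no call in limma among 22 tested (10 at an unadjusted p under 0.05), with 9 at the lean level and a median of -0.52. Apcs, the mouse pentraxin, had 9.64, 10.91 and 10.07 in obese FXR-K217R livers and 12.73 and 13.08 in lean FXR-WT livers. The groups did not overlap, but with 12.83 on array 1 of obese FXR-WT and 13.46 on array 3 of lean FXR-K217Q the spread was wide, and the difference did not pass (-2.70, SE 0.77, adjusted p = 0.105). Saa1, a serum amyloid, lay at the lean level (-0.19, SE 0.18) by a probe at 14.65 to 15.05 in obese FXR-K217R livers, near the top of the scale. Another Saa1 probe differed by -2.37 (SE 0.99), and with the mean of the probes the level statement was lost (adjusted p of the level test = 0.697). Lcn2, lipocalin, lay at the lean level (-0.25, SE 0.35) in 18 of 23 alternative fits, and it too was near the top of the scale.

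Neutrophil genes had no call in limma among 14 tested (9 at an unadjusted p under 0.05), while 13 of the 14 differences were negative, with a median of -0.84. Mpo, myeloperoxidase, had 5.28, 4.71 and 5.99 in obese FXR-K217R livers and 6.83 and 7.25 in lean FXR-WT livers. The groups were apart, with a difference of -1.72 (SE 0.38, adjusted p = 0.0526). Ltf, lactoferrin, had 6.09, 6.61 and 5.95 in obese FXR-K217R livers and 7.34 and 7.62 in lean FXR-WT livers, also apart but not past the threshold (-1.26, SE 0.29, adjusted p = 0.0572). S100a8 and S100a9, which together form calprotectin, differed by -0.91 (adjusted p = 0.148) and -0.97 (adjusted p = 0.0828). In obese FXR-WT livers Mpo had 8.74, 9.02 and 7.87, and Ltf 9.10, 9.21 and 10.08, above every array of the other obese group. The obese FXR-K217R minus obese FXR-WT differences, which use the same obese FXR-K217R arrays, were -3.22 for Mpo (adjusted p = 0.00632) and -3.25 for Ltf (adjusted p = 0.00162). Summed over the list, intensity was 19900 to 36800 in obese FXR-K217R livers and 37100 to 38200 in lean FXR-WT livers.

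**Figure D4:**
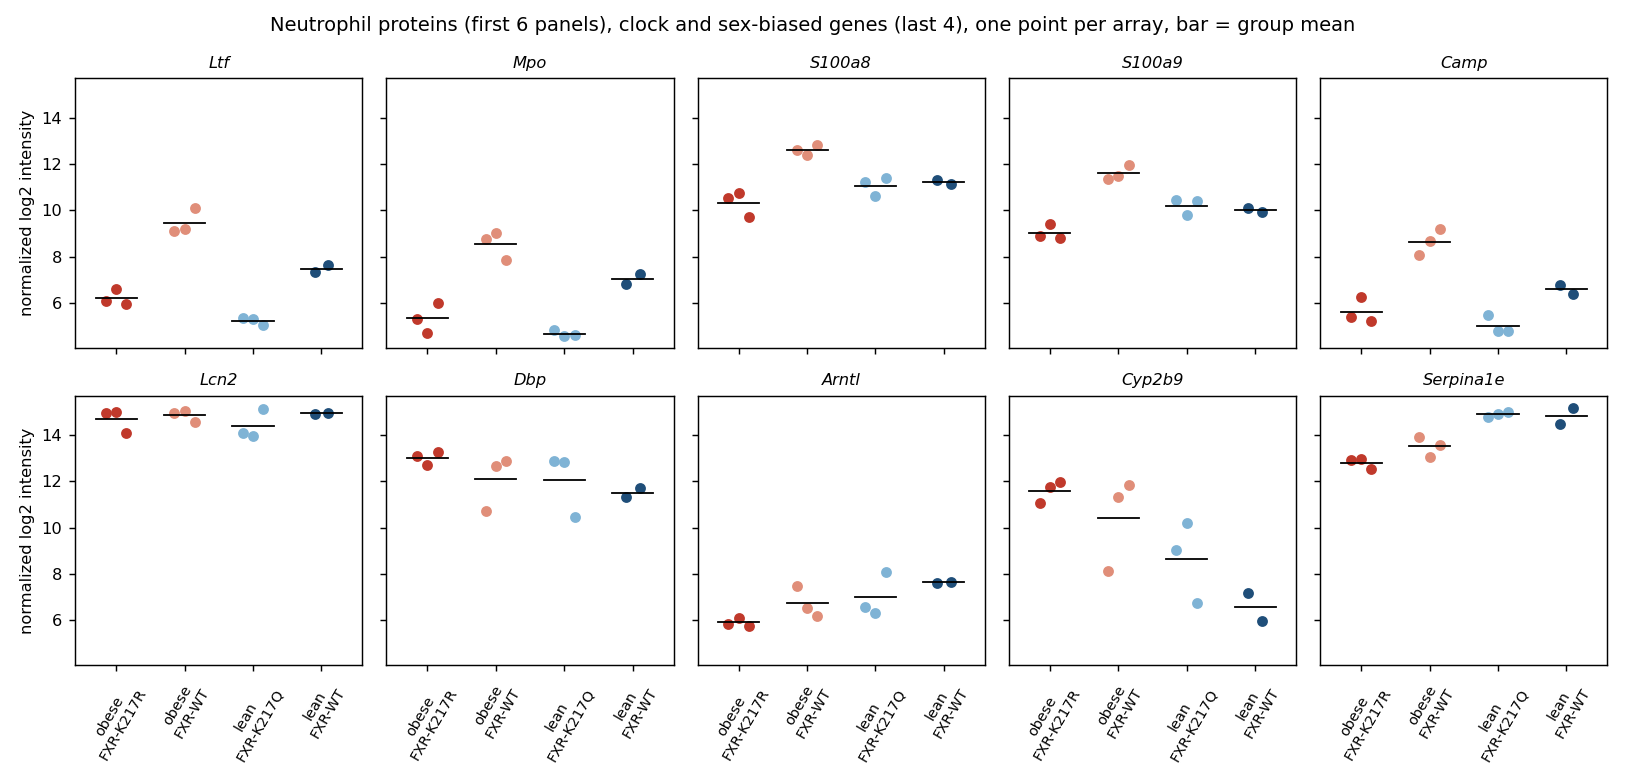
Points are single arrays in the order obese FXR-K217R, obese FXR-WT, lean FXR-K217Q and lean FXR-WT, with normalized log2 intensity on the y axis and a bar at each group mean. Mpo and Ltf are lowest in obese FXR-K217R and lean FXR-K217Q livers, while Dbp and Cyp2b9 fall apart within obese FXR-WT and lean FXR-K217Q livers.

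Matrix genes were all positive without passing, save 1. Of 25 tested stellate cell and matrix genes, 25 had positive differences with a median of 0.95, and Col4a1, a basement membrane collagen, was the only one past the threshold. It had 11.52, 11.30 and 11.22 in obese FXR-K217R livers and 10.67 and 10.07 in lean FXR-WT livers (difference 0.97, SE 0.20, adjusted p = 0.0375). It passed in 15 of 23 alternative fits, and not without array 2 of lean FXR-WT (adjusted p = 0.317), any 1 of the obese FXR-K217R arrays, array 2 or 3 of obese FXR-WT, or array 2 of lean FXR-K217Q. Col1a1, the main fibrillar collagen, had 10.97, 9.13 and 9.63 in obese FXR-K217R livers and 8.24 and 7.23 in lean FXR-WT livers, without overlap but not past the threshold (2.17, SE 0.50, adjusted p = 0.0607). The list median was 0.49 without array 2 of lean FXR-WT. Of 17 endothelial markers, 16 lay at the lean level and Ehd3 was lower (-0.90, SE 0.17, adjusted p = 0.0297), in 14 of 23 alternative fits. It did not pass without any 1 of the obese FXR-K217R or lean FXR-WT arrays, or array 2 or 3 of obese FXR-WT (adjusted p = 0.0514 to 0.238).

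Several single genes made large differences outside the lists described above. Rgs16, a brake on G protein signalling, had 11.07, 10.84 and 11.85 in obese FXR-K217R livers and 7.74 and 6.91 in lean FXR-WT livers, a 15.2-fold rise with a wide gap (adjusted p = 0.0126; 0.0517 and 0.174 without array 1 or array 2 of lean FXR-WT). Serpina12, which encodes the adipokine vaspin, had 13.16, 12.86 and 13.11 in obese FXR-K217R livers and 10.65 and 10.54 in lean FXR-WT livers (difference 2.45, SE 0.20, adjusted p = 0.000284). Its groups were tight and apart, and it passed in all 23 alternative fits. Cfd, adipsin, a complement protease made mainly by fat cells, had 8.36, 11 and 9.48 in obese FXR-K217R livers and 5.68 and 6.08 in lean FXR-WT livers. It was 13.3-fold higher without overlap (adjusted p = 0.0121), with differences of 2.25 to 4.36 over 23 alternative fits. It passed in 21 of them, and not without either lean FXR-WT array. The fat cell hormones Adipoq, Lep and Retn were under the detection filter and have no value. Whether fat tissue had a part in the Cfd difference was not tested. Osbpl3, a lipid transfer protein, was 6.86-fold higher (adjusted p = 0.0493) and passed in 12 of 23 alternative fits. Histone H4 genes were higher at 7 of 12 tested, against 0.963% of all genes, with differences from -0.02 to 2.67 over the 12. Among them were Hist1h4h (6.36-fold), Hist1h4m (5.88-fold) and Hist1h4j (5.39-fold), which passed in 19, 18 and 19 of 23 alternative fits. Another probe of Hist1h4m differed by 1.34 (SE 0.33). The H4 genes are near-identical copies, so which of them the probes read is uncertain.

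Among the falls outside sterol synthesis, Tff3, a trefoil peptide of mucous epithelia, had 5.51, 6.18 and 5.18 in obese FXR-K217R livers, detected on 2 arrays, and 8.34 and 8.51 in lean FXR-WT livers (difference -2.80, SE 0.36, adjusted p = 0.00451). Derl3, which helps clear misfolded proteins from the endoplasmic reticulum, was lower in obese FXR-K217R livers, where 1 of 3 arrays detected it (4.78, 5.24 and 4.84), than in lean FXR-WT livers (7.59 and 7.41; adjusted p = 0.049). Its difference ran from -2.74 to -0.93 over 22 alternative fits and passed in 10. It failed without any 1 array of obese FXR-K217R, obese FXR-WT or lean FXR-WT, or array 2 of lean FXR-K217Q (adjusted p = 0.0534 to 0.277). Array 3 of lean FXR-K217Q had 8.07. Adam32, a testis-type metalloprotease, was lower by 5.20-fold (adjusted p = 0.00512). Within complement, C8b and C6, parts of the membrane attack complex, were lower by 3.29-fold and 1.52-fold (adjusted p = 0.00806 and 0.0298). Neither passed without array 2 of lean FXR-WT. Nor did C6 pass without array 1 of that group, any 1 obese FXR-K217R array, or array 2 or 3 of obese FXR-WT. Cfd was the 1 higher gene of this list. Of 24 complement genes, 18 lay at the lean level, among them Cfb, C8g and also C6, whose small fall stood in both counts.

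Enzymes of amino acid breakdown fell at 4 of 33 tested genes, against 0.705% of all genes, with 21 at the lean level and a median of -0.42. Cps1, which opens the urea cycle, had 12.67, 13.06 and 13.26 in obese FXR-K217R livers and 14.32 and 14.54 in lean FXR-WT livers, without overlap (difference -1.43, SE 0.25, adjusted p = 0.0196). Tat, tyrosine aminotransferase, was lower (adjusted p = 0.0179) and detected on 1 of 3 obese FXR-K217R arrays, with 4.66, 5.09 and 5.33 in obese FXR-K217R livers and 6.58 and 7.33 in lean FXR-WT livers. Aass and Kynu, of lysine and tryptophan breakdown, were lower by 2.12-fold and 1.70-fold. None of the 33 passed without array 2 of lean FXR-WT or array 1 of obese FXR-K217R, 1 passed without array 1 of lean FXR-WT and 2 without array 3 of obese FXR-K217R.

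Sex-biased and immediate early genes gave scattered calls. Serpina1e, a male-biased protease inhibitor, had 12.94, 12.96 and 12.53 in obese FXR-K217R livers and 14.49 and 15.18 in lean FXR-WT livers, a 4.08-fold fall without overlap (adjusted p = 0.00475). Its near-identical relatives make the split between copies uncertain. The female-biased Cyp2b9 had 11.06, 11.77 and 11.98 in obese FXR-K217R livers and 7.16 and 5.96 in lean FXR-WT livers. That difference, 5.04 (SE 1.11), did not pass (adjusted p = 0.0526), and the other groups spread widely, with 8.12 on array 1 of obese FXR-WT and 6.73 on array 3 of lean FXR-K217Q. Egr1 and Egr2, transcription factors that respond within minutes to growth signals, were 3.50-fold and 3.10-fold higher (adjusted p = 0.00715 and 0.0159), with Egr1 at 11.13, 11.76 and 11.69 in obese FXR-K217R livers and 10.06 and 9.38 in lean FXR-WT livers. Neither passed without array 2 of lean FXR-WT (adjusted p = 0.122 and 0.212), nor Egr2 without array 1 of obese FXR-K217R. Lean FXR-K217Q livers also had 11.45, 11.07 and 11.20 for Egr1, above both lean FXR-WT arrays.

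The clock transcripts Dbp and Arntl did not pass. Dbp, a clock output gene that peaks late in the day, had 13.09, 12.71 and 13.27 in obese FXR-K217R livers and 11.32 and 11.71 in lean FXR-WT livers, without overlap, but 10.74 on array 1 of obese FXR-WT and 10.45 on array 3 of lean FXR-K217Q widened the spread (difference 1.51, SE 0.74, adjusted p = 0.307). Arntl, whose protein BMAL1 drives the clock in the opposite phase, had 5.84, 6.10 and 5.74 in obese FXR-K217R livers and 7.62 and 7.63 in lean FXR-WT livers (difference -1.74, SE 0.49, adjusted p = 0.10). Hours of collection are not given in the labels, and their part in any difference was not tested.

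All 31 tested subunits of oxidative phosphorylation lay at the lean level, with a median difference of -0.01. So did all 22 tested genes of the acetylation and SUMO list, though Rxra did so in only 18 of 23 alternative fits. Cox5b, a bright subunit gene, had 14.34, 14.39 and 14.22 in obese FXR-K217R livers and 14.35 and 14.33 in lean FXR-WT livers. Another, dimmer probe of Cox5b differed by -0.27 (SE 0.11). Genes with a mean of at least 8 lay at the lean level in 88.7% and dimmer genes in 84.9%. Of the genes at the lean level, 223 were not detected on any of the 5 arrays and 211 had both group means of at least 14, where like values say little. Genes whose group means spanned at least 2-fold over the 4 groups numbered 621, and 24 of them lay at the lean level. Adamtsl2, a matrix protein, had 6.87, 6.79 and 7.15 in obese FXR-K217R livers, 7.5, 7.99 and 7.75 in obese FXR-WT livers and 7.04 and 6.4 in lean FXR-WT livers. Ppbp, a platelet chemokine, had 6.70, 7.35 and 6.60 in obese FXR-K217R livers, 5.78, 6.01 and 6.05 in lean FXR-K217Q livers and 7.29 and 7.05 in lean FXR-WT livers. Pcdh17, a protocadherin, and Larp5 also lay at the lean level, with differences of -0.19 each, while lean FXR-K217Q livers stood apart from both.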

How the data were processed

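Liver RNA of 11 arrays in 4 groups was measured on Illumina BeadChips. Per the file headers, the authors' deposited table holds bead intensities averaged by probe, with detection p-values. Per the labels, biotinylated cRNA was made by TotalPrep (Illumina). No software for bead summarisation is named in these sources. Normalized log2 values were deposited too, and limma 3.12.3 is named in the submitters' processing notes. The pair of deposited copies are identical, and none of their values lies more than 0.0271 from those computed here. A total of 0 value columns were left unmatched to a sample.

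The neqc function (limma 3.58.1, R 4.3.3; offset 16) corrected the background and quantile-normalized the intensities. A probe was kept where at least 2 arrays detected it (p under 0.05), which left 21485 of 45281. Each symbol was represented by its brightest probe on average, which gave 15469 genes. Symbols are those of the deposited table, 4699 of them clone, locus or date symbols, and current names come from RefSeq (GRCm38.p6), where 9785 matched directly and 2920 by synonym. For 4256 genes several probes passed the filter. Of 97 other probes of named genes, 17 disagreed in sign, including 1 probe of a called gene (Acot2).

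One limma model (lmFit, eBayes) with a mean per group was fitted to all 11 arrays. Tests of a difference were two-sided, the level test used a margin of 1 on the log2 scale, and p-values were adjusted by Benjamini and Hochberg over all genes at a 5% false discovery rate. A gene that every array of a group left undetected has a bound in place of a fold, set by the lowest detected signal there. Other group comparisons share arrays with this one, so only their values are set beside it.

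The members, the 40 gene lists and the rules were chosen with earlier results of these data known. Named genes are the 12 largest rises and 12 largest falls past the threshold without array overlap or clone symbols, 14 fixed FXR, inflammation and neutrophil genes, up to 4 called members (or the nearest 2) and up to 2 members at the lean level of each list, and the 8 firmest genes at the lean level whose group means span 2-fold or more. Further genes were named for their roles with their values in view, such as Srebf2, Adfp, Fasn, Dhcr7, Col1a1 and Arntl. Lists were described without a test. Some items are not reported here.

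On simulated data of 15469 genes, 61% of genes changed by 1 on the log2 scale and 92% of those changed by 2 were recovered. There were 6 false calls, and 92.6% of unchanged genes were placed at the lean level. The simulated noise was normal and independent between genes and arrays, with the same spread in every group. It held no arrays that stood apart, so these rates need not hold for the real arrays. Replicate numbers were not treated as pairing the arrays. The correlations of deviations of same-numbered obese FXR-K217R and lean FXR-WT arrays were 0.10 and 0.13 over 2 pairs. With 2 lean FXR-WT arrays, the deviations of 1 mirror those of the other, so these values cannot decide whether arrays were paired. Alternatives changed the background correction, normalization, filter, probe choice, variance model, array weights, margin and arrays included.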

Additional observations from a re-analysis of the deposited data

How the results depend on the processing

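Each of the 258 differences that passed kept its sign under every alternative in which its gene was tested. Tests of each probe singly were not counted there, and another probe of Acot2 differed by -0.01. Where arrays were only left out or weighted, the lack of overlap between the groups fixed the sign in advance. A change of only the variance model or the filter left the difference of a kept probe as it was. The shares of genes past the threshold moved. Genes higher and genes lower, 0.963% and 0.705% of the genes tested as reported, made up 1.51% and 1.37% from the 5 arrays alone, and 1.59% and 1.40% by quantile normalization without background correction. With a trended, robust variance they made up 1.71% and 1.42%, with array weights 2.57% and 2.38%, and without both arrays that stood apart 3.13% and 2.97%. With the replicate number as a block they were 0.336% and 0.388%, or 52 and 60 genes, 103 of them among the 258. Leaving out 1 array gave 0.0776% to 1.89% higher and 0.168% to 1.73% lower. Genes at the lean level, 86.7% as reported, made up 93.6% of the 30869 genes tested without a filter on dim probes and 37.8% with a margin of 1.5-fold. The share was 86.6% without probes of a mean of at least 14, an alternative chosen after seeing the data. Median centring moved the median of all genes to 0.05. Several named genes that had not passed changed sign. Among those not at the lean level, leaving out 1 array gave -1.0 to 0.09 for Cyp8b1, -0.19 to 0.70 for Il1b and -0.09 to 0.55 for Srebf1. Genes at the lean level with differences near 0 crossed it too, such as Lcn2 (-0.41 to 0.04), Nfkb1 (-0.06 to 0.35) and Adamtsl2 (-0.10 to 0.54). The cause of these shifts was not tested. Few arrays, dim signals and signals at the top of the scale limit what could be placed.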

Other observations

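Other gene groups gave few calls. Unfolded protein and integrated stress genes had 0 of 24 past the threshold in limma (13 at an unadjusted p under 0.05) and 7 at the lean level, with a median of -0.64 and Pdia6, a protein disulphide isomerase, nearest (-1.09, limma adjusted p = 0.0733). Of these 24, 9 were lower without both arrays that stood apart, 8 without array 3 of lean FXR-K217Q alone and 6 from the 5 arrays alone. In limma none passed of 21 NRF2 and glutathione genes (2 at an unadjusted p under 0.05, median 0.32), 18 p53 targets (3, median 0.11) or 23 cell cycle genes (6, median 0.28). The same held for 13 growth hormone and IGF genes (7, median -0.14) and 24 xenobiotic P450 genes (5, median -0.05), of which 11 lay at the lean level, and Cyp2e1, the ethanol-metabolising enzyme, lay at it (0.06, SE 0.12).

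Iron genes were split, with Id1, a target of BMP signalling, higher (1.56, SE 0.28, limma adjusted p = 0.0218) and Tfrc, the transferrin receptor, lower (-1.01, SE 0.17, adjusted p = 0.0159). Tfrc had 9.67, 9.95 and 9.70 in obese FXR-K217R livers and 10.71 and 10.87 in lean FXR-WT livers, without overlap. Neither Id1 nor Tfrc passed without either lean FXR-WT array or array 1 or 3 of obese FXR-K217R. Of 16 iron genes, 12 lay at the lean level. Erythroid markers had Tfrc as their 1 call of 12, and their summed intensity was 47800 to 53300 in obese FXR-K217R livers and 71200 to 72900 in lean FXR-WT livers. Immediate early genes had 2 higher of 17, 0 without array 2 of lean FXR-WT, and clock genes of the repressor phase 0 of 10 in limma (1 at an unadjusted p under 0.05).

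Male-biased genes had 3 lower of 19 tested, Serpina1e, Susd4 and C6, with 11 at the lean level and a median of -0.37, and 0 lower without array 2 of lean FXR-WT. C6 was counted there both as lower and as at the lean level. Over all genes, 0.705% were lower. Female-biased genes had Acot3 higher and A1bg and C730007P19Rik, now Sult2a2, lower among 9 tested. Pericentral markers had 0 of 15 in limma (2 at an unadjusted p under 0.05) and periportal markers 1 lower of 15, with medians of 0.06 and -0.46. None passed of 22 T and NK cell genes (7 at an unadjusted p under 0.05, median 0.52), 9 B and plasma cell genes (3, median 0.23) and 8 cholangiocyte genes (2, median 0.00). Krt23, a keratin in the last list, had 9.86, 9.64 and 10.22 in obese FXR-K217R livers and 6.77 and 6.00 in lean FXR-WT livers, and did not pass (3.52, SE 0.95, adjusted p = 0.0901). Adipocyte and pancreas markers had Cfd as their 1 call of 6.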
